A study of Mus musculus with 11 samples.

Results

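A set of 10 genes of innate immune sensing was followed in mouse hearts after myocardial infarction (MI), namely Nlrp3, Pycard, Casp1, Casp4, Gsdmd and Aim2 of the inflammasome pathway and Tlr2, Tlr4, Cd14 and Myd88 of the Toll-like receptor pathway. They were chosen by symbol, and 10 of the 10 were found among the 55421 mouse gene rows of the count table. The hearts came from 11 female C57BL/6J mice aged 8 weeks, and RNA was sequenced to ask how the inhibitor GI254023X (A10i) of the metalloprotease ADAM10 alters the infarcted heart. In 4 mice the left anterior descending coronary artery was permanently ligated and A10i was given at 100 mg/kg in DMSO, in 4 mice the artery was ligated and DMSO alone was given, and 3 mice were sham-operated and also received DMSO. Both agents were delivered by subcutaneous osmotic minipumps, per the study's methods. The infarcted mice gave tissue of the infarct and its border zone 3 days after ligation (the labels name the border zone alone), whereas the sham mice gave healthy heart tissue on a day that the labels do not give, so the piece of heart and the operation changed together between infarcted and sham mice. None of the 11 sequenced mice was labelled as both sham-operated and A10i-treated. Each library is 1 mouse, named below by the mouse identifiers of the study (S1, S2 and S3 for sham, A105, A127, A128 and A129 for MI with DMSO, and A116, A117, A119 and A120 for MI with A10i).

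Toll-like receptors sit on the cell surface or in endosomes and bind microbial products and molecules released from dying cells. They signal through adaptor proteins to the transcription factor NF-kappa B, which drives cytokine genes and raises the transcription of inflammasome parts. An inflammasome is a cytosolic complex in which a sensor, through the adaptor ASC, activates caspase-1, which then matures the cytokines encoded by Il1b and Il18 and cuts gasdermin D so that pores open in the membrane. In an infarcted heart, neutrophils, monocytes and macrophages enter the tissue within days, and these cells carry much of both pathways.

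The total count over mouse genes lay between 21702623 and 29511768 per library. In each of the 15 pairs of replicates the mice differed by more than counting noise (chi-square per degree of freedom at least 4.04). The summed level of 8 cardiomyocyte markers was at least 33670 CPM (counts scaled to a common library total) in every library, so all libraries held heart muscle RNA. Among infarcted mice, A116 had the highest CPM of its group for 10 of the 10 genes and A129 the highest of its group for 9, while A128 was lowest of its group for 7. Mitochondrial genes held 21.5 to 22.2% of the counts in sham, 14.8 to 18.6% in DMSO and 15.7 to 17.9% in A10i mice, and A129 and A116 had the lowest share of their groups. The part of this share in the results was not tested.

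The identity of each gene is given in GRCm38 (mm10), with the summed exon length in the count table. Nlrp3 (ENSMUSG00000032691) lies at chr11:59541568-59566956 on the plus strand with 4057 exon bases, and Aim2 (ENSMUSG00000037860) at chr1:173350879-173466040 on the plus strand with 3501. Pycard (ENSMUSG00000030793) lies at chr7:127989708-127993867 on the minus strand with 3800 exon bases. Casp1 (ENSMUSG00000025888, 3136 exon bases) and Casp4 (ENSMUSG00000033538, 3710 exon bases) are neighbours on the plus strand of chromosome 9, at chr9:5298508-5307290 and chr9:5308828-5336783, with 1537 bases between them. Gsdmd (ENSMUSG00000022575) lies at chr15:75862327-75867408 on the plus strand with 2377 exon bases. Tlr2 (ENSMUSG00000027995) lies at chr3:83836272-83841767 on the minus strand with 3014 exon bases, and Tlr4 (ENSMUSG00000039005) at chr4:66827584-66930284 on the plus strand with 5556. Myd88 (ENSMUSG00000032508) lies at chr9:119335934-119341411 on the minus strand with 2576 exon bases, and Cd14 (ENSMUSG00000051439) has 1732. Pycard shares 485 exon bases with Gm45205 and Myd88 shares 290 with Acaa1a, each on the opposite strand. The libraries were strand-specific, but the strand setting of the counting was not given in the sources used here, so reads of these shared bases cannot be assigned with certainty.

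Promoter sequence was read for 7 of the 10 genes from RefSeq (GRCm38.p6), as the 250 bases before the annotated start, and was searched on both strands for 4 short motifs. These were GGG and CC with any 5 bases between them, a loose NF-kappa B motif found in 45.8% of 32851 promoter windows of that length, TGANTCA for AP-1 (6.75%), GAGGAAGT for ETS factors of the PU.1 type (2.44%) and a pair of GAAA with any 2 bases between them for interferon response elements (2.98%). Nlrp3 and Casp4 have 2 annotated starts each, which gave 9 windows in all. The NF-kappa B motif was present in 1 of the 2 windows of Nlrp3, in both of Casp4 and before Casp1 and Tlr2, and the other window of Nlrp3, at chr11:59542436-59542685, held none of the 4 motifs. The 2 windows of Casp4 overlap for most of their length and hold the same sites, so they are not separate finds. Casp4 held it at 3 separate places, which 6.09% of all windows reached or exceeded, while Casp1, its neighbour, held it at 1. Pycard and Aim2 each held a PU.1 type match, Myd88 held an interferon response match, and the AP-1 motif was in none of these windows. A match says that the letters are present and not that a factor binds there. The windows of the 4 genes with an NF-kappa B match are shown because the neighbours Casp1 and Casp4 fell on different sides of the test threshold after MI, as described further on, and that of Myd88 because it held a different motif. Such a split is not a tested difference between the genes, and a link between motifs and changes after MI was not tested. The coordinates are chr11:59541319-59541568 (plus strand) for Nlrp3, chr9:5298267-5298516 (plus) for Casp1, chr9:5308599-5308848 (plus) for Casp4, chr3:83841609-83841858 (minus) for Tlr2 and chr9:119340019-119340268 (minus) for Myd88, the last of which lies within the longer Ensembl gene row. The windows of Nlrp3, Casp1, Casp4 and Tlr2 overlap their Ensembl gene rows in part, that of Tlr2 the most. Sequences run 5′ to 3′ and end at the base before the start, with motif matches in capitals.
Nlrp3: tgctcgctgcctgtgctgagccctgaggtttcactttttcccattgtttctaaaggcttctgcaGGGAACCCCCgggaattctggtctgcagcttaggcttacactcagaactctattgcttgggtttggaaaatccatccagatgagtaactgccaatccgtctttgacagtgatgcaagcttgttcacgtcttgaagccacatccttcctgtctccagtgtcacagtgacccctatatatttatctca
Casp1: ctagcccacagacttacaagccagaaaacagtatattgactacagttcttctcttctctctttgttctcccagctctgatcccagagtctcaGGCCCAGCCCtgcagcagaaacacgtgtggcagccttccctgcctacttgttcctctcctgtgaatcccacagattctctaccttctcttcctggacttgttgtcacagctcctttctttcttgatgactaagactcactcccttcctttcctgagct
Casp4: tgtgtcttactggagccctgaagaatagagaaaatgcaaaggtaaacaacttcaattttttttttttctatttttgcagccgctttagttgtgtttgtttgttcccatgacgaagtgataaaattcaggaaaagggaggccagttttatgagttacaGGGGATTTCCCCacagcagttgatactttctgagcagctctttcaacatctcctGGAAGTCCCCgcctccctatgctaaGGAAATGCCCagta
Tlr2: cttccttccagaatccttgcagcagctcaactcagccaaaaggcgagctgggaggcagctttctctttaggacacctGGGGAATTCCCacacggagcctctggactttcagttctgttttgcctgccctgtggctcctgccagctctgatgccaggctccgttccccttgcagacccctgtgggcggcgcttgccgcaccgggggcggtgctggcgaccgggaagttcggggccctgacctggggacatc
Myd88: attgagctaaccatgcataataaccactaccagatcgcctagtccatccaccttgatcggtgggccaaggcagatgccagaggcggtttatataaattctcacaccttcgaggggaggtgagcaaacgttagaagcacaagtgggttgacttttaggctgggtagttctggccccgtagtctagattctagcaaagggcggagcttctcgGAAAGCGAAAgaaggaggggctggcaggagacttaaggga

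Levels of different genes were compared per exon length, as TPM, in which each count is divided by the exon length before it is scaled to a common total. In sham hearts Myd88 stood highest at 9.95 ± 1.03 TPM (SD, n = 3), followed by Gsdmd, Cd14 and Tlr4, and Nlrp3 stood lowest at 0.387 ± 0.1003 TPM. The ranges of Myd88 and Gsdmd overlapped, as did those of Gsdmd and Cd14 and of Casp1 and Casp4, while the other neighbours in the sham order did not overlap. In DMSO-treated infarcted hearts Cd14 led at 36.4 ± 15.5 TPM (n = 4), ahead of Myd88 at 26.5 ± 3.77, with overlapping ranges, and Myd88 lay above Tlr4 at 16.1 ± 2.58 without overlap. Nlrp3, at 2.30 ± 1.07 TPM, overlapped with Aim2 at 2.07 ± 0.742 at the bottom of that order. In A10i-treated infarcted hearts every pair of neighbours overlapped, from Cd14 at 21.3 ± 8.18 TPM down to Nlrp3 at 1.10 ± 0.881. All 10 genes were therefore detected in every group, and by group mean the inflammasome sensors and caspases were the scarcest of the 10 in each. In both infarcted groups, however, the range of Casp4 overlapped that of Pycard, the next gene above it.

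The comparison of DMSO-treated infarcted with sham hearts asks what ligation does to these genes without the inhibitor. Of the 10 genes, 6 rose and 0 fell at the study's threshold of 0.01 for the adjusted p-value, whereas 12.9% of the 17117 genes tested rose and 9.6% fell (edgeR's quasi-likelihood F-test, two-sided, p-values adjusted by Benjamini and Hochberg). The genes that rose were Nlrp3, Casp4, Tlr2, Tlr4, Cd14 and Myd88. The median log2 fold change of the 10 genes was 0.93 against 0.0021 over all genes tested, and 10 of the 10 passed the filter on low counts. For 8 of the 10, every infarcted mouse lay above every sham mouse, a separation that 25.6% of all tested genes showed in the upward direction. Because whole tissue was sequenced, more cells of a type that carries a transcript and more transcript per cell cannot be told apart in any of these values.

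Nlrp3, the sensor of the best-known inflammasome, had 0.957, 0.557 and 0.724 CPM in the sham mice S1, S2 and S3. It had 4.02, 3.09, 2.15 and 5.54 CPM in the DMSO mice A105, A127, A128 and A129. These levels rest on 15 to 22 counts per sham library and 64 to 142 per DMSO library, and the groups did not overlap. The log2 fold change was 2.30 ± 0.37 (SE), a 4.93-fold rise (edgeR adjusted p = 0.00130), and without S2 the adjusted p was 0.010003, just above the threshold. Aim2, the sensor of cytosolic DNA, had 1.93 to 2.26 CPM in sham mice and 2.41, 2.62, 2.45 and 3.98 CPM in A105, A127, A128 and A129. Its groups did not overlap either, but 3 of the 4 infarcted mice were close to the sham range, and the log2 fold change of 0.46 ± 0.23 did not pass (95% interval -0.06 to 0.97, edgeR adjusted p = 0.142) and was 0.25 without A129.

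**Figure D1:**
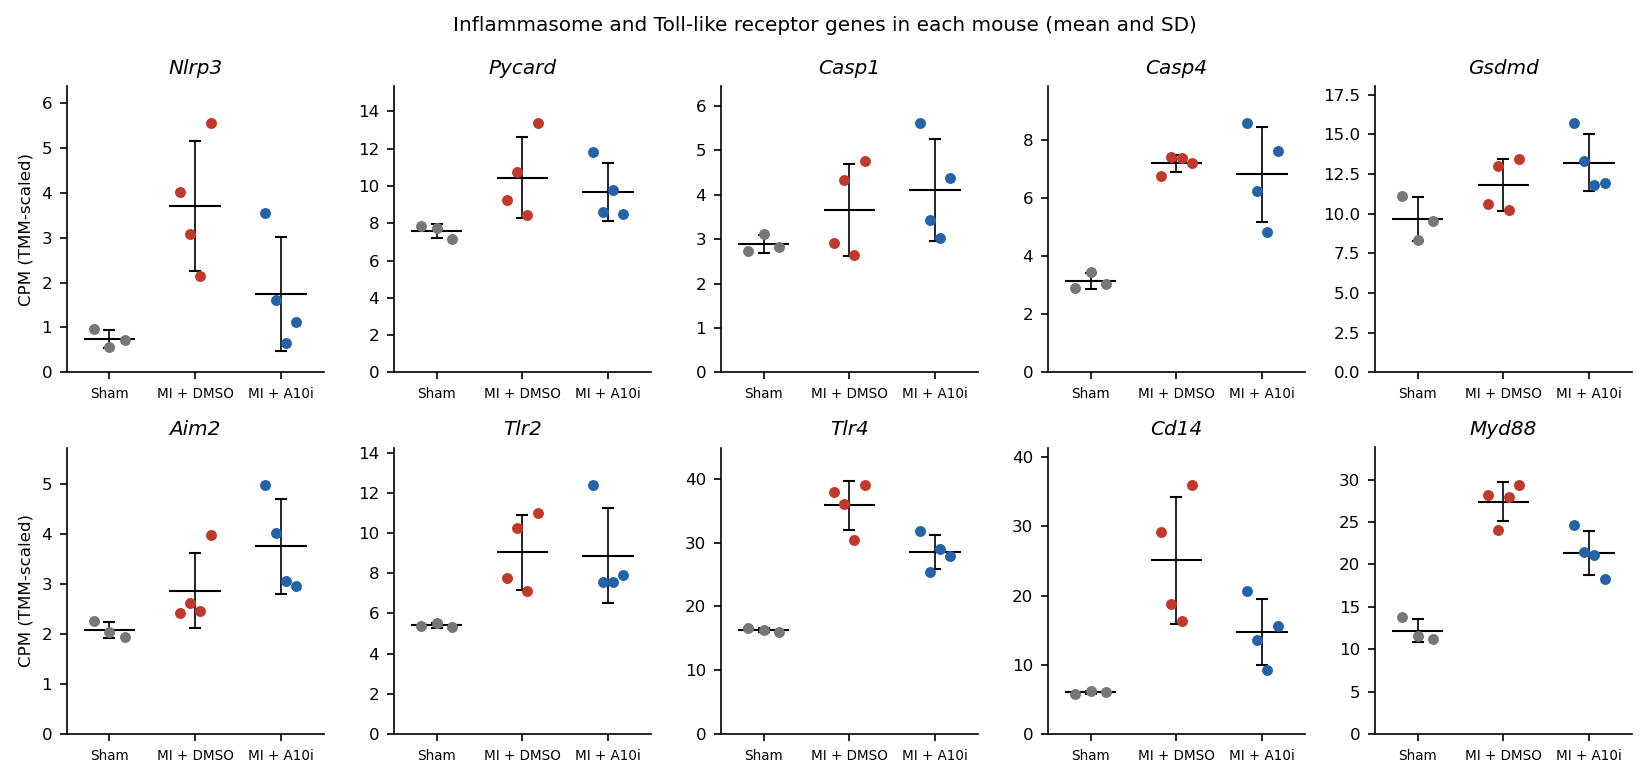
Normalised read count in CPM (vertical axis, starting at 0, TMM-scaled over all 11 libraries) of each of the 10 genes in every mouse, with sham in grey, MI with DMSO in red and MI with A10i in blue. Horizontal lines are group means and error bars SD (n = 3, 4 and 4 mice). Pycard, Casp4, Aim2, Tlr2, Tlr4, Cd14 and Myd88 lie above sham in all 8 infarcted mice, whereas the A10i and DMSO mice overlap in every panel.

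Pycard encodes ASC, the adaptor that joins sensors to caspase-1. Its level was 7.16 to 7.88 CPM in sham and 8.42 to 13.4 CPM in DMSO mice, without overlap, and the log2 fold change of 0.45 ± 0.17 did not pass (edgeR adjusted p = 0.0517). Casp1, the protease of the canonical inflammasome, had 2.74, 3.12 and 2.81 CPM in sham mice and 2.92, 4.34, 2.65 and 4.76 CPM in A105, A127, A128 and A129. A105 and A128 lay within or below the sham range while A127 and A129 lay above it, and the log2 fold change was 0.33 (95% interval -0.20 to 0.86, edgeR adjusted p = 0.288), or 0.18 without A129. Gsdmd, the pore-forming substrate of these caspases, likewise had 8.31 to 11.1 CPM in sham and 10.2 to 13.5 CPM in DMSO mice, with overlap and a log2 fold change of 0.29 (95% interval -0.04 to 0.61, edgeR adjusted p = 0.139), or 0.19 without S2.

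Casp4 is the mouse gene of the non-canonical inflammasome caspase, which binds lipopolysaccharide in the cytosol. It had 2.92, 3.45 and 3.06 CPM in S1, S2 and S3. In the DMSO mice it had 6.77, 7.43, 7.38 and 7.22 CPM. The 4 infarcted mice were close to each other, at 7.20 ± 0.299 CPM (SD), and all were far above sham, with a rise of 1.18 ± 0.14 in log2 terms, or 2.27-fold (edgeR adjusted p = 0.000303). Casp4 and Casp1, which lie next to each other and whose TPM ranges overlapped in sham hearts, were thus on different sides of the threshold. Their ratio of counts within a mouse, which needs no scaling between libraries, was 1.06, 1.11 and 1.09 in the sham mice and 2.32, 1.71, 2.78 and 1.52 in A105, A127, A128 and A129. This ratio was picked after the values had been seen and was given no test.

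Of the receptors, Tlr4, which senses lipopolysaccharide and products of damaged tissue, had 16.7, 16.4 and 16.04 CPM in the sham mice. In A105, A127, A128 and A129 it had 37.9, 36.0, 30.4 and 39.0 CPM. The groups were well apart, and the rise was 1.12 ± 0.10 in log2 terms, or 2.18-fold (edgeR adjusted p = 0.000122). Tlr2, which senses bacterial lipoproteins as a dimer with Tlr1 or Tlr6, had 5.31 to 5.53 CPM in sham and 7.79, 10.2, 7.11 and 11.01 CPM in the DMSO mice, again without overlap. Its log2 fold change of 0.73 ± 0.17, or 1.66-fold, passed with little to spare (edgeR adjusted p = 0.00887). It no longer passed without S1 (0.0380), S2 (0.0339), S3 (0.0393), A127 (0.0244) or A129 (0.0127), nor with limma-voom (0.0160) or a joint fit of the 11 libraries (0.0124).

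Cd14, the co-receptor that hands lipopolysaccharide to Tlr4, had 5.74, 6.27 and 5.99 CPM in the sham mice. In A105, A127, A128 and A129 it had 29.2, 18.7, 16.4 and 36.0 CPM. The lowest infarcted mouse was thus above every sham mouse, though the 4 infarcted mice were widely spread, and the log2 fold change was 2.05 ± 0.28, or 4.14-fold (edgeR adjusted p = 0.000897). Myd88, the adaptor that most Toll-like receptors and the receptor of interleukin 1 share, had 13.8, 11.5 and 11.2 CPM in sham and 28.1, 24.1, 28.0 and 29.4 CPM in the DMSO mice. These infarcted mice were close together, and the log2 fold change was 1.16 ± 0.11, or 2.24-fold (edgeR adjusted p = 0.000140). Cd14 rose along with more of the marker genes of infiltrating cells. The summed level of 15 neutrophil markers was 6.46 to 8.62 CPM in sham mice, in which 3 to 5 of the 15 were at 0, and 115 to 226 CPM in DMSO mice. Of these markers, 11 of the 11 that passed the filter rose. Several of them, such as Trem1 (0 counts in every sham library), S100a8 (1 to 3) and Cxcr2 (1 to 2), passed it through the infarcted mice alone. The direction of their change was thus set by the filter. Ly6g had 0 counts in sham and 1 to 8 counts per DMSO library. The sum of 15 monocyte and macrophage markers was 438 to 470 CPM in sham and 691 to 1118 CPM in DMSO mice, with 9 of 15 higher and 2 of 15 at a negative log2 fold change, and that of 8 cardiomyocyte markers was 71027 to 71941 against 33670 to 50770 CPM. The sum of 7 fibroblast markers was 878 to 938 against 1278 to 3953 CPM (3 of 7 higher), that of 6 endothelial markers 867 to 887 against 671 to 798 CPM (2 of 6 lower) and that of 5 B cell markers 8.32 to 10.01 against 3.52 to 6.18 CPM (1 of the 2 that passed the filter lower). Over all genes tested 12.9% rose and 9.6% fell. The part of these marker shifts in the rise of the 6 genes was not tested.

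**Figure D2:**
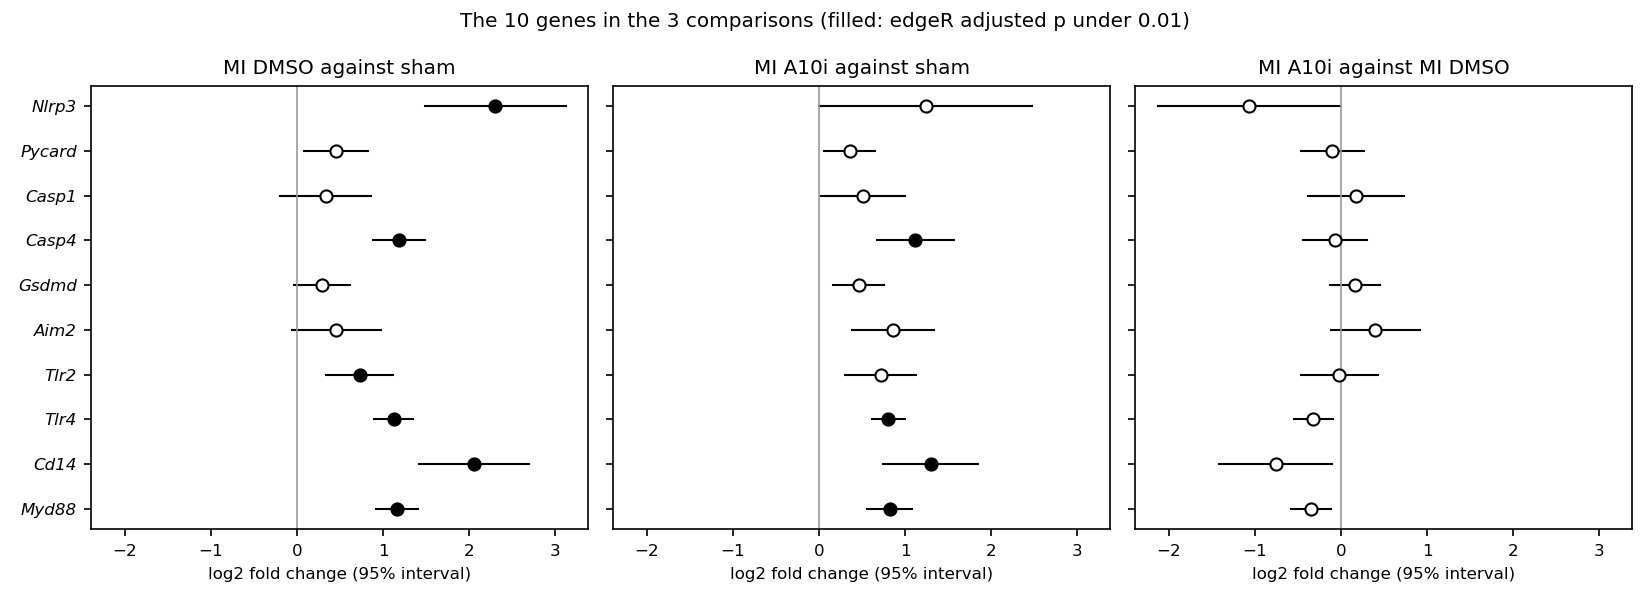
Log2 fold change (horizontal axis) of each of the 10 genes in the 3 comparisons, with 95% intervals as lines and filled circles where the edgeR adjusted p was under 0.01. Filled circles number 6 for DMSO against sham, 4 for A10i against sham and 0 for A10i against DMSO, and the 2 comparisons with sham share the sham mice.

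The comparison of A10i-treated infarcted with sham hearts used the same 3 sham mice and so is not independent of the one above. Here 4 of the 10 genes rose and 0 fell, whereas 13.7% of the 16971 genes tested rose and 9.11% fell (edgeR's quasi-likelihood F-test, adjusted in the same way). The genes were Casp4, Tlr4, Cd14 and Myd88, and the median log2 fold change of the 10 genes was 0.81 against -0.0054 over all genes tested. In 8 of the 10, which leaves out Nlrp3 and Casp1, every A10i mouse lay above every sham mouse, against 24.8% of all genes. The count of 4 depended on the setting. It was 6 with DESeq2 (14.9% of its genes higher), which added Aim2 and Tlr2, 7 at an adjusted p under 0.05 (21.7% of all genes), and 2 when S1 or S3 was left out. Marker genes moved between these groups too. The summed neutrophil markers were 33.3 to 85.8 CPM in A10i mice, with 9 of the 11 that passed the filter higher. Several of these again passed it through the infarcted mice alone. The monocyte and macrophage markers had 11 of 15 higher and the fibroblast markers 6 of 7, and 3 of the 8 cardiomyocyte markers were lower. The part of these marker genes in the rise of the 4 genes was not tested.

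Tlr4 had 31.8, 25.4, 29.0 and 27.9 CPM in A116, A117, A119 and A120. All 4 lay above sham, and the log2 fold change was 0.81 ± 0.09 (edgeR adjusted p = 0.000246) beside the 1.12 of the DMSO mice. Myd88 had 24.7, 21.5, 21.1 and 18.3 CPM, also all above sham, and the fitted log2 change was 0.82 ± 0.12 (edgeR adjusted p = 0.000685) beside 1.16. Cd14 had 20.6, 13.5, 9.23 and 15.7 CPM in the A10i mice. A119 came nearest to the sham mice without reaching them, and the log2 fold change was 1.30 ± 0.24 (edgeR adjusted p = 0.00349) beside 2.05. Without S1, S2 or S3 the adjusted p of Cd14 was 0.0182, 0.0134 or 0.0153, and with the joint fit it was 0.0104. Casp4 had 8.58, 6.26, 4.84 and 7.61 CPM, a wider spread than in the DMSO mice, and its log2 fold change was 1.12 ± 0.20 (edgeR adjusted p = 0.00211) beside 1.18. Without S1 or S3 its adjusted p was 0.0141 or 0.0130.

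Nlrp3 had 3.56, 1.62, 0.662 and 1.12 CPM in A116, A117, A119 and A120, from 90, 42, 16 and 25 counts. A119 lay within the range of the sham mice, A117 and A120 lay above it by less than 1 CPM, and A116 was at the level of DMSO mice. The log2 fold change over sham was 1.24 ± 0.55 and did not pass (edgeR adjusted p = 0.103), and it was 0.63 without A116 and 1.51 without A119. Aim2 had 4.98, 4.02, 3.06 and 2.95 CPM, all above sham, and its log2 fold change of 0.86 ± 0.22 stayed just outside the threshold (edgeR adjusted p = 0.0106). Tlr2, at 12.4, 7.57, 7.57 and 7.92 CPM, and Gsdmd, at 15.7, 13.3, 11.8 and 12.0 CPM, also had no A10i mouse within the sham range. Their log2 fold changes were 0.72 ± 0.19 (edgeR adjusted p = 0.0122) for Tlr2 and 0.46 ± 0.13 (edgeR adjusted p = 0.0197) for Gsdmd. Pycard, at 8.51 to 11.8 CPM, and Casp1, at 3.02 to 5.61 CPM, had log2 fold changes of 0.36 ± 0.13 and 0.51 ± 0.22 (edgeR adjusted p = 0.0555 and 0.0907). That of Casp1 was 0.32 without A116.

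Infarcted hearts with A10i and with DMSO were then compared directly, which is the question of what the inhibitor changes. None of the 10 genes passed, by edgeR, DESeq2 or limma-voom, and edgeR called 0% of the 16792 genes tested in either direction at 0.01. DESeq2 called 0.605% of its genes higher and 0.714% lower. All 10 genes had overlapping groups, whereas 3.78% of all tested genes were higher in every A10i mouse and 4.4% lower. At an unadjusted p under 0.05, 4 of the 10 genes were lower and 0 higher, against 6.73% lower and 7.1% higher over all genes (edgeR). These were Nlrp3, Tlr4, Cd14 and Myd88. Of the 10 genes 7 had a negative log2 fold change, as did 49.3% of all genes, and the median was -0.09 against 0.0034 over all genes tested.

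Myd88 had the smallest p of the 10, with 3 of the 4 A10i mice below every DMSO mouse and A116, at 24.7 CPM, just above the lowest DMSO mouse, A127, at 24.1. Its log2 fold change was -0.35 ± 0.10 (95% interval -0.58 to -0.12, edgeR unadjusted p = 0.00757, adjusted p = 0.190). Tlr4 was alike, with A116 at 31.8 CPM the only A10i mouse above the lowest DMSO mouse, A128, at 30.4. The log2 fold change of Tlr4 was -0.32 ± 0.10 (95% interval -0.55 to -0.09, edgeR unadjusted p = 0.0101, adjusted p = 0.213). Cd14 had 13.5, 9.23 and 15.7 CPM in A117, A119 and A120, all below the lowest DMSO mouse at 16.4, and again A116, at 20.6, overlapped. Its log2 fold change was -0.76 ± 0.29 (95% interval -1.41 to -0.10, edgeR adjusted p = 0.296). For Nlrp3, A117, A119 and A120 likewise lay below all 4 DMSO mice and A116 among them, with a log2 fold change of -1.07 ± 0.47 (95% interval -2.12 to -0.01, edgeR adjusted p = 0.356). In all 4 genes, then, the overlap was due to the same A10i mouse. Without A116 the log2 fold changes were -0.42 for Myd88, -0.37 for Tlr4, -0.96 for Cd14 and -1.68 for Nlrp3, with edgeR adjusted p-values of 0.118, 0.156, 0.205 and 0.106, and none passed. A116 was chosen here because it overlapped, so larger falls follow from that choice. Over all single mice left out, the log2 fold changes nearest to 0 were -0.80 for Nlrp3 (without A119 or A129), -0.52 for Cd14 (A129), -0.28 for Myd88 (A120) and -0.27 for Tlr4 (A117 or A129).

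The other 6 genes had intervals on both sides of 0, which leaves room for changes of either sign. The log2 fold change was -0.10 for Pycard (95% interval -0.47 to 0.26), -0.07 for Casp4 (-0.44 to 0.30) and -0.02 for Tlr2 (-0.47 to 0.43). It was 0.17 for Casp1 (-0.39 to 0.73), 0.17 for Gsdmd (-0.13 to 0.46) and 0.40 for Aim2 (-0.12 to 0.91). The sign of Pycard, Casp1, Casp4 and Tlr2 turned when single mice were left out, and Gsdmd and Aim2 came to 0.075 and 0.24 without A116 and to 0.24 and 0.60 without A129. Marker genes moved between the same mice. The summed neutrophil markers were 33.3 to 85.8 CPM in A10i mice against 115 to 226 CPM in DMSO mice, without overlap, and 11 of the 11 that passed the filter had a negative log2 fold change, 10 of them at an unadjusted p under 0.05. The summed monocyte and macrophage markers were 859 to 1587 CPM against 691 to 1118 CPM, with A116 highest of its group and A129 highest of its own, as for most of the 10 genes, and 14 of the 15 had a positive log2 fold change, 6 of them at an unadjusted p under 0.05. The sum of 6 endothelial markers was 812 to 922 CPM against 671 to 798 CPM, without overlap and with 6 of 6 positive, and that of 7 fibroblast markers was 3088 to 5894 CPM against 1278 to 3953 CPM, with 6 of 7 positive. A116 and A129 were each highest of their group for the fibroblast sum too, and each lowest for the cardiomyocyte sum. The sum of 8 cardiomyocyte markers was 40284 to 55514 CPM against 33670 to 50770 CPM, with 7 of 8 positive, and 5 of 5 red blood cell transcripts had a positive log2 fold change, with a median of 0.64. In no A10i library was more than 1 of the 15 neutrophil markers at 0. Of the B cell markers, 2 of the 2 that passed the filter had a positive log2 fold change, with a median of 0.92, and 1 was at an unadjusted p under 0.05 (edgeR). The part of these cells in the values of Nlrp3, Tlr4, Cd14 and Myd88 was not tested.

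The ratios within a mouse put the same data on a scale free of library size. Cd14 over Tlr4, the co-receptor relative to its receptor, was 0.345 to 0.383 in sham mice, 0.771, 0.520, 0.539 and 0.922 in A105, A127, A128 and A129, and 0.648, 0.531, 0.318 and 0.562 in A116, A117, A119 and A120. Only A119 of the 8 infarcted mice was not above the sham mice. Nlrp3 over Pycard, sensor over adaptor, was 0.0721 to 0.122 in sham, 0.255 to 0.434 in DMSO and 0.0678 to 0.301 in A10i mice. Here A116 was the only A10i mouse above the lowest DMSO mouse, and A119 was below the lowest sham mouse. Casp4 over Casp1 was 1.53, 1.82, 1.60 and 1.73 in A116, A117, A119 and A120, above every sham mouse and inside the spread of the DMSO mice. All 3 ratios were picked after the values had been seen, were given no test and carry the counting error of both genes.

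**Figure D3:**
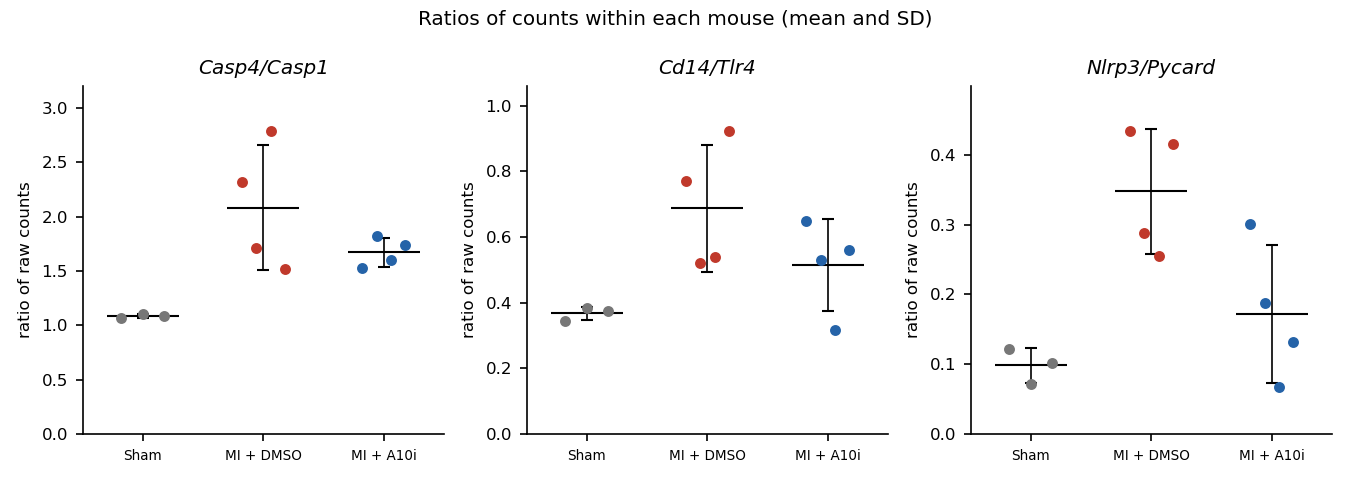
Ratio of raw counts (vertical axis, no unit) of Casp4 to Casp1, Cd14 to Tlr4 and Nlrp3 to Pycard within each mouse, with group means and SD (n = 3 sham, 4 DMSO and 4 A10i mice). The Casp4 to Casp1 ratio lies near 1 in sham mice, with a mean of 1.09, and between 1.52 and 2.78 in the infarcted mice.

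Across the 8 infarcted mice the 10 genes did not all vary together. Pearson's r of log2 CPM between 2 of the genes ran from -0.18 to 0.93 over 45 pairs, with a median of 0.57 and 40 pairs above 0. The points share their library and its scaling, 2 treatments are pooled, and 4 mice per treatment are too few for a value within each, so these are descriptions with no test. The closest pair was Nlrp3 and Cd14, with r = 0.93 and Spearman's rho = 0.976, and r = 0.96 without the 2 mice farthest from the median of Nlrp3. Tlr4 and Cd14, receptor and co-receptor, followed each other at r = 0.82. Casp1 and Gsdmd, protease and substrate, had r = 0.87, Pycard and Tlr2 0.89, Gsdmd and Aim2 0.89 and Casp1 and Tlr2 0.89. Without the 2 mice farthest from the median of the first gene of each pair, these values were 0.66, 0.81, 0.75 and 0.77. The lowest of the 45 values was -0.18 for Aim2 and Tlr4, which became 0.17 without the 2 mice farthest from the median of Aim2. Pycard and Tlr4 had r = 0.66, and 0.60 without the 2 mice farthest from the median of Pycard. Several other values rested on such mice, among them that of Pycard and Cd14, which went from 0.57 to 0.039. Casp4 had r = 0.63 with Nlrp3 (rho = 0.238, and r = 0.39 without the 2 mice farthest from the median of Nlrp3) and 0.60 with Casp1 (0.72 without the 2 mice farthest from the median of Casp1).

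**Figure D4:**
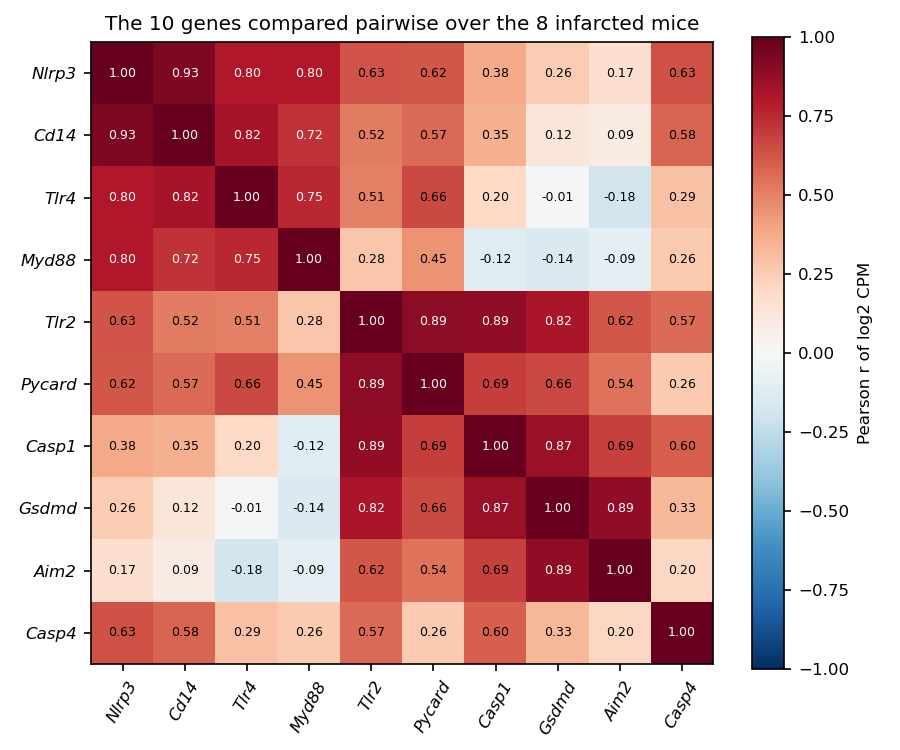
Pearson's r of log2 CPM for each pair of the 10 genes over the 8 infarcted mice (colour scale from -1 to 1, values printed in the cells). Nlrp3 and Cd14 show the highest value, 0.93, and Aim2 and Tlr4 the lowest, -0.18.

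The genes whose log2 CPM was most like that of each of the 10 across the 8 infarcted mice were sought among 14751 genes with a mean of at least 1 CPM, as a description with no test. For Nlrp3 they included Exosc1 and Cd300lf (Pearson's r = 0.99 and 0.98, with the same order of the 8 mice, rho = 1). For Cd14 they were Hprt, Rtf2 and Eef1g, for Tlr4 Atf4, Purb and Gnb2, and for Myd88 Gm5456, Pa2g4 and Snx12, with r from 0.97 to 0.99. Pycard was followed most closely by Gpr153, Camk1d and Grk6, Casp1 by Ticam2, 4930503L19Rik and Rfc2, and Gsdmd by Cd180, Mlec and Wdr81, also with r from 0.97 to 0.98. Ticam2 encodes an adaptor of Tlr4 and Cd180 a receptor of the same family. The nearest genes were Dock11, Zeb2 and Sall2 for Aim2 and Gm9800, Fkbp11 and Erp29 for Tlr2. Casp4 had the weakest likeness, with Klhl28 at r = 0.92, Akr1c13 at 0.92 and Gm4130 at 0.91, and the value for Gm4130 was 0.061 without the 2 mice farthest from the median.

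Other genes of these pathways were read from 4 lists of 83 genes in all, namely 27 other inflammasome genes, 38 other Toll-like receptor genes, 8 genes of cytosolic DNA sensing and 10 danger signals, which are molecules that stressed or dying cells and damaged matrix release to alert receptors of these and other pathways. In DMSO against sham hearts, 10 of the 24 other inflammasome genes that passed the filter rose and 0 fell, with a median log2 fold change of 0.79. Il1b, the cytokine that caspase-1 matures, rose by 5.41 ± 0.49 on the log2 scale from 1 to 5 counts per sham library, and Serpinb1a, an inhibitor of neutrophil and inflammatory proteases, by 3.38 ± 0.29 (edgeR adjusted p = 0.000132 and 0.000140). Mefv, the sensor pyrin, had 1 count over the 3 sham libraries and 52 to 111 counts per DMSO library. Il1b and Mefv thus passed the filter through the infarcted mice alone, which set the direction of their change. Of 35 other Toll-like receptor genes that passed, 6 rose and 2 fell, with a median of 0.36, beside 12.9% higher and 9.6% lower over all genes tested. In 14 of the 35 every DMSO mouse lay above every sham mouse, beside 25.6% of all genes. In 6 of the 35 every DMSO mouse lay below every sham mouse. The kinase gene Irak4 rose by 0.77 and its partner Irak1 fell by 0.36, the transcription factor genes Irf5 and Rela rose by 1.30 and 0.43, and Ikbkg, a subunit of the kinase upstream of NF-kappa B, fell by 0.35 on the log2 scale. Of the DNA sensing genes 3 of 7 rose, namely Sting1, Zbp1 and Ifi204 by 1.76, 2.00 and 1.49, and Ifi203 fell by 0.92. Ifi203 and Ifi204 belong to a family of similar genes, so the split of reads between them may be uncertain, which was not tested. Of the danger signals 8 of 10 rose and 0 fell, led by S100a8, S100a9 and Tnc at 8.31, 7.22 and 6.84, the first on 1 to 3 and the next on 2 to 7 counts per sham library, and S100a8 and S100a9 also stand in the neutrophil marker list. S100a8, S100a9 and Il1a (0 to 1 count per sham library) passed the filter through the infarcted mice alone. The filter thus set the direction of their change.

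Against sham, the A10i hearts showed 11 of 24 other inflammasome genes higher and 0 lower, with a median of 0.68, and the sham mice are again shared. The channel gene Panx1 rose by 1.97 ± 0.22, Serpinb1a by 3.16 ± 0.30 and Ninj1, which ruptures the membrane of dying cells, by 0.52 ± 0.10 (edgeR adjusted p = 0.000273, 0.000291 and 0.00230). Of 35 other Toll-like receptor genes 8 rose and 4 fell, with a median of 0.21, beside 13.7% higher and 9.11% lower over all genes tested. Irf5, Unc93b1, which carries endosomal Toll-like receptors, and Irak4 rose by 1.31, 0.97 and 0.81, and Irak1, Map3k7 and Tab3 fell by 0.32, 0.29 and 0.39. Sting1, Zbp1 and Ifi204 were the 3 of 7 DNA sensing genes that rose, by 1.82, 2.21 and 1.72, and 0 fell. Of 9 danger signals 7 rose, with Bgn at 1.58, S100a8 at 6.31 and Vcan at 1.82 among them, and Hspd1, a mitochondrial chaperone gene, fell by 0.31. Among the genes of these lists, Il1b, Mefv, S100a8 and S100a9 again passed the filter through the infarcted mice alone.

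**Figure D5:**
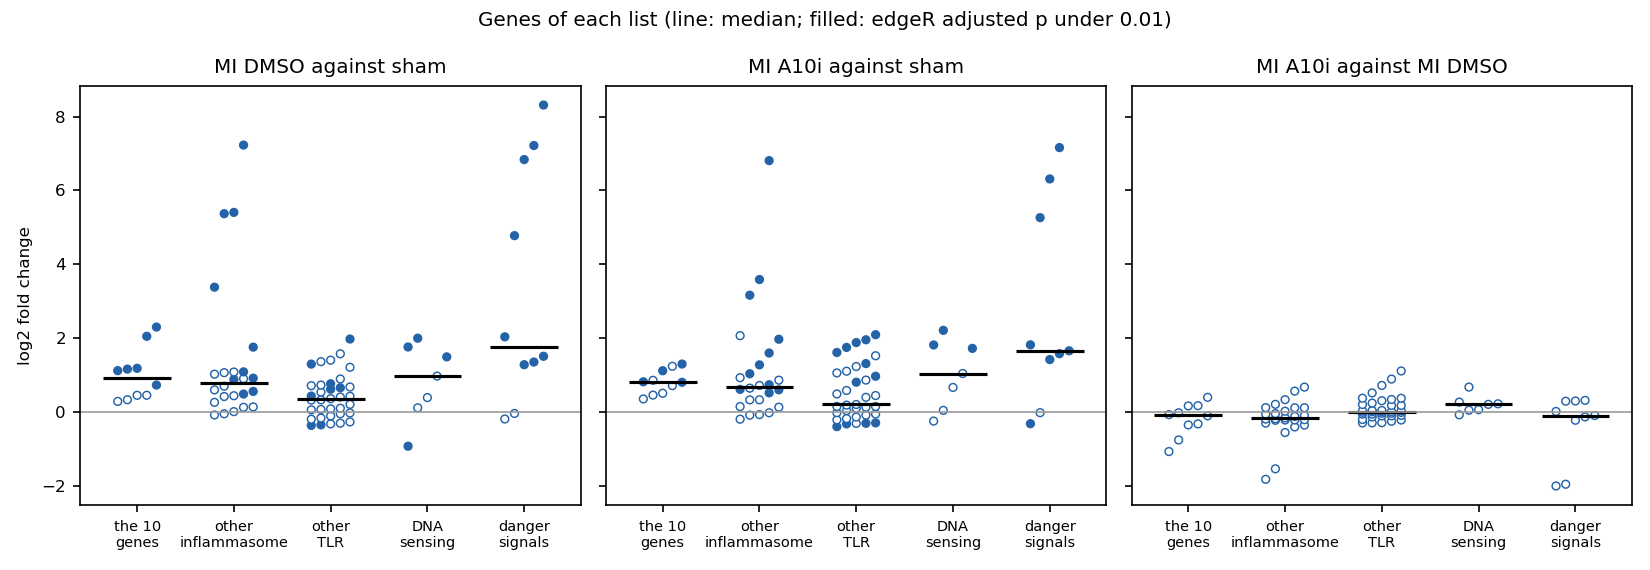
Log2 fold change (vertical axis) of the 10 genes and of the genes of the 4 lists that passed the filter, in the 3 comparisons, with a line at the median of each list and filled circles where the edgeR adjusted p was under 0.01. The medians of the 10 genes are 0.93, 0.81 and -0.09, and no circle is filled in the A10i against DMSO panel. The high points of Mefv, and of Nlrp12 and Il1a in the DMSO against sham panel, rest on 1 count each in the sham libraries.

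Between A10i and DMSO hearts 0 genes of the 4 lists passed with edgeR. At an unadjusted p under 0.05, 1 of 25 other inflammasome genes was higher and 2 were lower, 3 of 35 other Toll-like receptor genes were higher and 3 lower, 1 of 7 DNA sensing genes was higher, and 2 of 9 danger signals were lower. Over all genes tested 7.1% were higher and 6.73% lower at that p, so the counts of the inflammasome and Toll-like receptor lists were near those of any genes. The medians were -0.16, 0.012, 0.21 and -0.09. Il1b had 5.54, 3.86, 7.51 and 9.10 CPM in A105, A127, A128 and A129. In A116, A117, A119 and A120 it had 3.87, 0.888, 1.32 and 1.21 CPM. As for Nlrp3, 3 A10i mice were below all DMSO mice and A116 was not, and the log2 fold change was -1.82 ± 0.45 (edgeR adjusted p = 0.140, DESeq2 adjusted p = 0.00243). S100a8 and S100a9 had log2 fold changes of -2.001 ± 0.33 and -1.95 ± 0.32 without overlap of the groups (edgeR adjusted p = 0.0707 for both, DESeq2 adjusted p = 6.36e-07 for both). Nlrp12, an inhibitory sensor of the Nlrp3 family, had a log2 fold change of -1.54 ± 0.62 on 2 to 39 counts per library. The endosomal DNA receptor Tlr9 had 1.11 ± 0.41 and Ly86, which pairs with Cd180, 0.89 ± 0.33, each with edgeR adjusted p = 0.276. Ifi203 had 0.68 ± 0.17 (edgeR adjusted p = 0.140), the sensor gene Nlrc4 0.68 ± 0.29 and Irf7 0.52 ± 0.23. Rela, Tab3 and Tirap, an adaptor that brings Myd88 to Tlr2 and Tlr4, had -0.25 ± 0.08, -0.29 ± 0.12 and -0.30 ± 0.13.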

How the data were processed

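RNA from the hearts of 11 mice was sequenced by the authors after poly(A) selection. Per the study's methods and processing notes, read pairs were aligned to mm10 with GSNAP, and uniquely aligned reads were counted per gene of Ensembl 98 with featureCounts (2.0.1). The deposited values are these raw counts, whole numbers without normalization, for 55421 mouse gene rows and 92 rows of spike-in controls. The spike-in rows held 4.74e-05 to 0.000194% of the counts and were left out. The GENCODE M21 annotation gave a symbol for 55154 identifiers.

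Pairs of groups were compared on these counts in R 4.3.3 with edgeR 4.0.16 (filterByExpr, TMM normalization, robust quasi-likelihood F-test, two-sided, Benjamini-Hochberg adjustment over all genes tested, threshold 0.01), on the libraries of these groups alone. CPM were computed with TMM-scaled totals of all 11 libraries, and TPM from the length column of the deposited count table. Correlations used log2(CPM + 0.1). Alternatives were DESeq2 1.42.0 (the study used an earlier release with independent hypothesis weighting, which was not used here), limma-voom (limma 3.58.1), other scalings and filters, a joint fit, a threshold of 0.05 and omission of each library. Groups came from the treatment labels, and p-values weigh the difference between groups against the spread between mice.

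The 10 genes, the lists, the markers and the alternatives were chosen with earlier results of these data known. Of the lists, up to 3 higher and 3 lower genes per comparison were named, those with the smallest p past 0.01 or, where no gene of the table passed, at an unadjusted p under 0.05. Of genes alike in pattern, the 3 with the highest Pearson's r were named, except 1 that is not reported here. The protein sequences of the 10 genes were not analysed here.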

Additional observations from a re-analysis of the deposited data

Results flagged for a closer look

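In 2 of the 20 sets of 4 infarcted mice (10 genes in 2 groups), 1 mouse stood apart from the rest of its group, and chance gives about 1 such set in 20. Aim2 in the DMSO mouse A129 was at 3.98 CPM, with the other DMSO mice at 2.41 to 2.62 CPM, and the gap to the nearest of them was 0.867 of the group's range. Tlr2 in the A10i mouse A116 was at 12.4 CPM, with the other A10i mice at 7.57 to 7.92 CPM, and the gap was 0.927 of the range. A129 was the highest DMSO mouse for 9 of the 10 genes and A116 the highest A10i mouse for 10 of the 10.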

How the results depend on the processing

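No paired analysis was possible because the labels give each mouse its own identifier and tie no mouse to a mouse of another group. Against sham, 0 of the 10 genes changed sign under any alternative run. For DMSO against sham, 142 of 150 values kept their direction and side of the threshold and 8 no longer passed, and the number of genes higher was 4 to 6 when single libraries were left out. For A10i against sham, 130 of 150 did so, 7 no longer passed and 13 passed only under the alternative. There the 4 genes became 7 with library size alone as the scaling, which moved the median of all genes to 0.18, and 7 at an adjusted p under 0.05, and ranged from 2 (without S1 or S3) to 5 (without A116 or A119). Without a filter on low counts Cd14 did not pass (edgeR adjusted p = 0.0212) while Gsdmd, Aim2 and Tlr2 did. The cause was not tested. For A10i against DMSO, 152 of 160 did so and 0 genes passed under any alternative run. In the main edgeR fit of that comparison 0% of all genes tested passed, so keeping the side of the threshold says little there. In each comparison the threshold of 0.05 reused the main fit, so its values could not change sign. When single mice were left out, the sign turned for Pycard (-0.21 to 0.041, the latter without A129), Casp1 (-0.012 without A116, to 0.33), Casp4 (-0.20 to 0.064, the latter without A119) and Tlr2, which ran from -0.22 to 0.093 and was positive without A127 (0.044), A129 (0.093), A117 (0.050), A119 (0.051) or A120 (0.028). Nlrp3 stayed between -1.68 and -0.80, Cd14 between -0.96 and -0.52, Myd88 between -0.42 and -0.28 and Tlr4 between -0.39 and -0.27. Nlrp3 rests on 15 to 22 counts in each sham library and 16 in A119, which limits what can be seen there.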
